A study of Mus musculus with 16 samples.

Results

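The plasminogen activators Plat and Plau, the urokinase receptor Plaur, the integrin subunits Itga2 and Itgb6, and Hbegf, Areg, Ereg and Tgfa, ligands of the epidermal growth factor (EGF) receptor, are genes known from the epithelium at the edge of a wound. These 9 genes were taken by name, and each was read from a probe set (the group of array probes that reports 1 transcript) that the array's annotation ties to a single gene. Of the 9, 8 had such a probe set, 1 each, among the 19938 genes measured, and Areg was not analysed here. By Entrez gene ID and chromosome they are Plat (18791, chromosome 8), Plau (18792, 14), Plaur (18793, 7), Itga2 (16398, 13), Itgb6 (16420, 2), Hbegf (15200, 18), Ereg (13874, 5) and Tgfa (21802, 6). Expression was measured in isolated colonic epithelial cells of gender-matched C57BL/6 mice at 70 days of age, on 16 whole-transcript arrays that each carried pooled RNA of 3 mice. Secretory IgA (SIgA) is the antibody that Pigr, the polymeric immunoglobulin receptor, carries across epithelia. Passive SIgA came with the milk of Pigr+/- dams and was missing with Pigr-/- dams. Active SIgA was made available by the offspring's own Pigr in Pigr+/- mice and was missing in Pigr-/- mice. The 4 DSS groups had drunk 2% dextran sulfate sodium (DSS), which injures the colonic epithelium and causes colitis, for 8 days. They were Pigr+/- offspring of Pigr+/- dams (both sources), Pigr-/- offspring of Pigr+/- dams (passive only), Pigr+/- offspring of Pigr-/- dams (active only) and Pigr-/- offspring of Pigr-/- dams (neither). The 4 untreated groups had the same genotypes, and each of the 8 groups was measured on 2 arrays. No group held Pigr+/+ mice. Each litter has a single dam, so passive SIgA and litter cannot be told apart.

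Plasminogen activators cut plasminogen to plasmin, a protease that dissolves fibrin and clears a path for migrating cells; Plat encodes the tissue type, Plau the urokinase type, and Plaur the receptor that holds urokinase at the cell surface. Integrins anchor cells to matrix: the α2 subunit, from Itga2, binds collagen together with β1, and the β6 subunit, from Itgb6, pairs with αv in epithelia, binds fibronectin and activates latent TGF-β. EGF receptor ligands are made as membrane proteins that are shed by metalloproteases, and drive epithelial migration and proliferation.

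Of these genes, Itga2 and Itgb6 changed with DSS and Plaur did not pass the test, and the RefSeq promoter table (build GRCm38.p6) held all 3, so the 250 bases before their listed starts are shown for comparison. Capitals mark the AP-1 motif TGANTCA, the recognition sequence of Fos and Jun dimers, and the GC box GGGCGG, bound by Sp factors, each searched on both strands with overlapping matches kept. Sequences run 5′ to 3′ on the gene's strand.
Itga2, chr13:114932101-114932350, minus strand: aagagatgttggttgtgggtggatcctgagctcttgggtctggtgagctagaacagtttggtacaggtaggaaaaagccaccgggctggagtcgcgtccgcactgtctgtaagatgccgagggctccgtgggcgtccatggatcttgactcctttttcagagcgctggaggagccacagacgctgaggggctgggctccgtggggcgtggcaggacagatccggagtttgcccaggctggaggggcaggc
Itgb6, chr2:60722604-60722853, minus strand: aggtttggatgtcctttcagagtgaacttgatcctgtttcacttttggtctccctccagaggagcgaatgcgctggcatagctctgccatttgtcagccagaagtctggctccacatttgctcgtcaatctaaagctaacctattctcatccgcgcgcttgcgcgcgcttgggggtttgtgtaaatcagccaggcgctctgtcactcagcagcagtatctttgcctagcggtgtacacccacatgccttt
Plaur, chr7:24462233-24462482, plus strand: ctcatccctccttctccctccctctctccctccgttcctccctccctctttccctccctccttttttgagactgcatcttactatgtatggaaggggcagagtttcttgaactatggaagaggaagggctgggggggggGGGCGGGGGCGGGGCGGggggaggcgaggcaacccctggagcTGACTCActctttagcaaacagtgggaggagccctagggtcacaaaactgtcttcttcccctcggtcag
The table held windows for 5 of the 9 genes, the others being Areg and Tgfa. The Plaur window lies within the span of the annotated gene, before 1 of its starts. It contained 1 AP-1 match, whose first base lies at -69 from the start, and 3 GC boxes, with first bases at -111, -105 and -100. The boxes at -105 and -100 share a base, the box at -111 adjoins them without overlap, and none shares a base with the AP-1 match. No match to either motif was found in the Itga2 window or in either of 2 Itgb6 windows, of which the outermost is shown. Over all 32851 windows of this length in the table, 6.75% held the AP-1 motif and 32.7% the GC box.

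Pigr separated the offspring genotypes as labelled. It lay between 11.34 and 11.70 on the arrays of Pigr-/- offspring and between 12.18 and 12.46 on those of Pigr+/- offspring; levels are log2 intensities throughout. A set of 12 markers of colonic epithelium averaged 12.32 to 12.46 after DSS and 12.36 to 12.47 untreated. The arrays of untreated mice with both sources were least like the rest: their highest correlations with an array of another group were 0.986 and 0.981, against 0.989 to 0.997 elsewhere. Replicate 1 of the untreated group with active SIgA only lay beside them on the first principal component, at -32.2 against -33.5 and -35.2. The mean level of 1285 chemosensory genes was 5.25 and 5.41 on the untreated arrays with both sources and 4.87 on that replicate. It was 4.45 to 4.70 on all other arrays, and its bearing on the comparisons was not tested. Where leaving out the untreated arrays with both sources changed a call, the value or count without them is given. Leaving out that replicate as well changed further calls in the gene lists, not all of which are given.

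DSS raised 4 of the 8 genes on average over the 4 SIgA groups and 0 were called lower. Plat and Itga2 had the clearest rises, by 1.75-fold and 1.5-fold, and the increases of Itgb6 (1.29-fold) and Ereg (1.3-fold) were smaller and less stable. Plau, Plaur, Hbegf and Tgfa did not pass the test. The test was limma's moderated test across all genes with Benjamini-Hochberg adjustment, and a gene is said to rise or fall where its adjusted p was under 0.05. By this rule 13.1% of all genes passed for DSS: 6.4% were higher and 6.73% lower. Of the genes called, 48.7% were higher, against 34.8% when each array was centred on its median, a step that left the same 4 genes called. The median difference of the 8 genes was 0.26 on the log2 scale, against -0.004 over all genes. Neutrophil markers moved with the same contrast (11 of 14 higher), and their part in these rises was not tested. In pooled material, more cells of a type and more RNA per cell cannot be told apart.

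**Figure D1:**
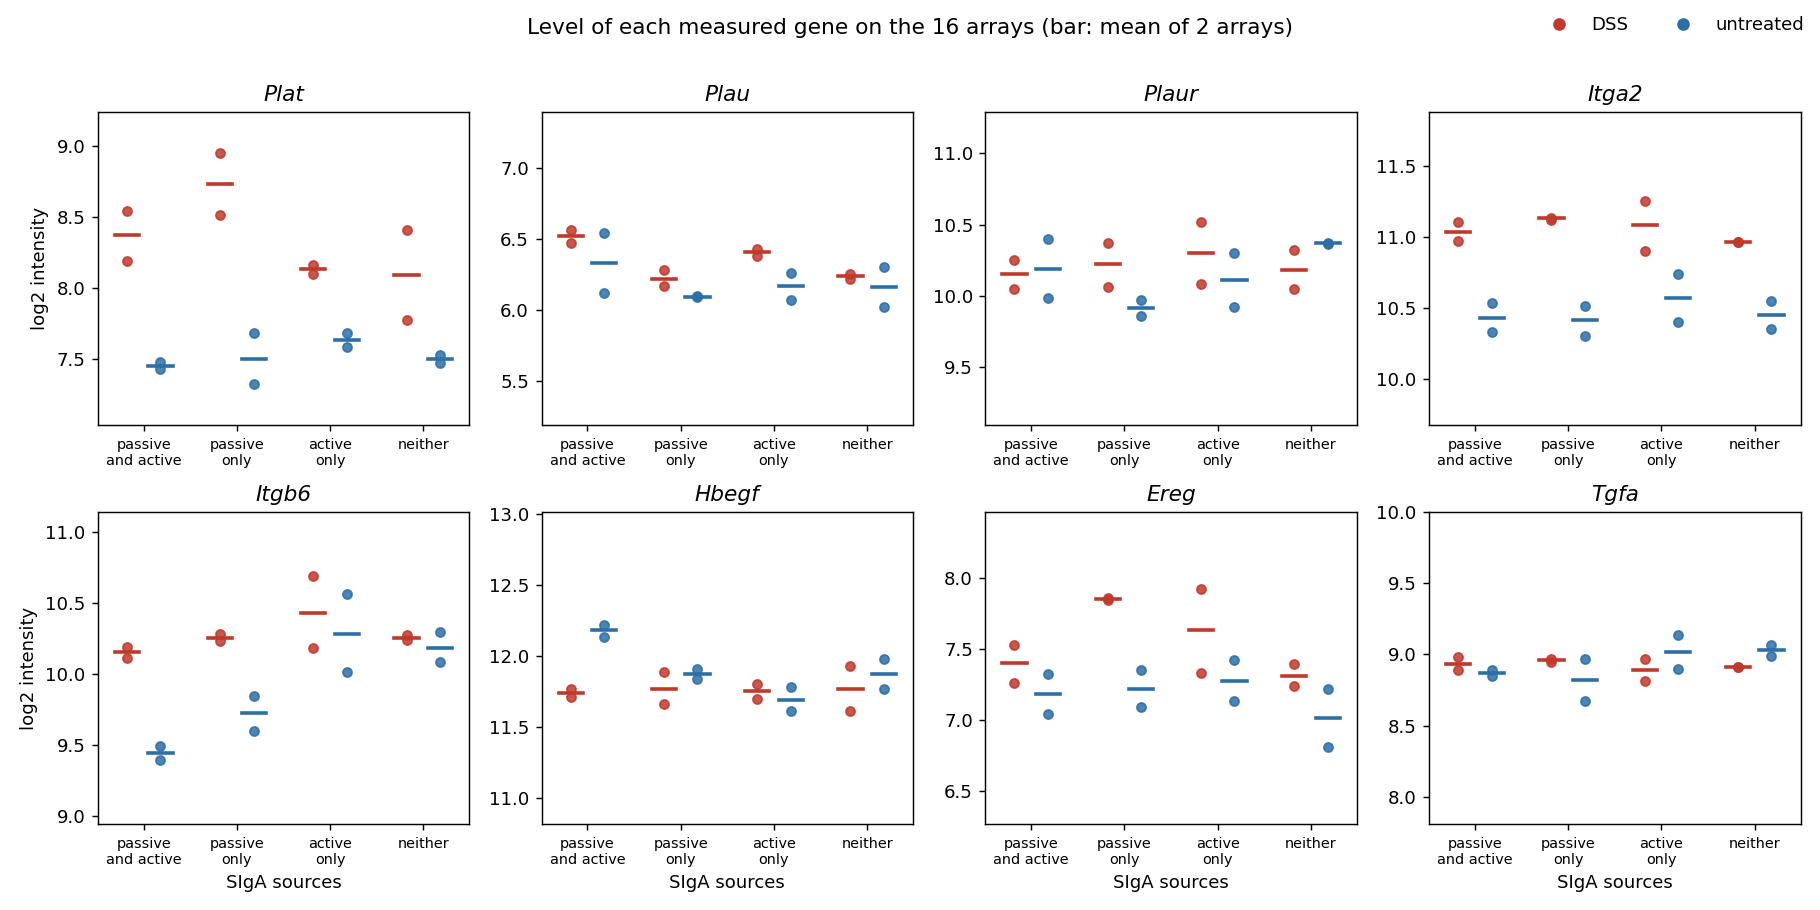
Log2 intensity of each of the 8 measured genes on every array, with DSS arrays (red) left of untreated arrays (blue) in each of the 4 SIgA groups; points are arrays and bars the mean of 2 arrays. Plat and Itga2 lie above all untreated arrays on all 8 DSS arrays, while the 2 sets overlap for the other 6 genes.

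Plat, tissue plasminogen activator, ran from 7.77 to 8.95 on the 8 DSS arrays (median 8.30) and from 7.32 to 7.68 on the 8 untreated arrays (median 7.51). The DSS arrays thus lay wholly above the untreated ones, as they did for 1.58% of all genes, with the reverse for 1.3%. The mean was 8.33 ± 0.35 after DSS and 7.52 ± 0.12 untreated (SD over 8 arrays each). With passive SIgA only, both DSS arrays were high, at 8.95 and 8.51, against 7.32 and 7.68 untreated. With both sources, they read 8.19 and 8.54, against 7.43 and 7.48 untreated. With active only they read 8.16 and 8.10, against 7.58 and 7.68 untreated, and with neither 8.41 and 7.77, against 7.47 and 7.53 untreated. After DSS the arrays without passive SIgA overlapped with those that had it. The average difference was 0.81 ± 0.10 (log2 ± standard error, SE; adjusted p = 0.000155). In the order of the 8 group means the 4 untreated groups came lowest (7.45 to 7.63) and the 4 DSS groups highest (8.09 to 8.73). Among neighbours in that order, only the highest untreated group (active only, 7.63) and the lowest DSS group (neither, 8.09) differed at an unadjusted p under 0.05, by 0.46 ± 0.20 (limma, unadjusted p = 0.0405). The order was set by these same values. For this and the other genes, p between neighbours therefore only describes the gap and is no test of a difference.

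Plau, the urokinase-type activator, ran from 6.17 to 6.56 after DSS (median 6.33) and from 6.02 to 6.54 untreated (median 6.11), so that only 1 DSS array exceeded all untreated ones. Its average difference was 0.16 ± 0.07 (adjusted p = 0.177; 95% interval 0.00 to 0.31). Plaur, its receptor, spanned 10.05 to 10.52 after DSS (median 10.16) and 9.86 to 10.40 untreated (median 10.14), with a difference of 0.07 ± 0.09 (adjusted p = 0.75; interval -0.14 to 0.27). No neighbours in the order of the 8 group means differed at an unadjusted p under 0.05 for either gene. Among these 3 genes of plasminogen activation, tissue-type activator alone passed the test. By mean level Plau lay at percentile 35 of all genes, Plat at 64.7 and Plaur at 92.6. The bearing of the level on these calls was not tested.

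Itga2, the collagen-binding α2 subunit, ran from 10.90 to 11.25 after DSS (median 11.03) and from 10.30 to 10.74 untreated (median 10.46). Again no DSS array reached down to the untreated ones, and the means were 11.05 ± 0.12 after DSS and 10.46 ± 0.15 untreated (SD over 8 arrays each). With both sources, the DSS arrays read 10.97 and 11.10, against 10.33 and 10.53 untreated, and with passive only 11.13 and 11.12, against 10.51 and 10.30. The active-only DSS arrays read 10.90 and 11.25, against 10.40 and 10.74 untreated, and those with neither 10.96 and 10.96, against 10.55 and 10.35. Within every SIgA group both DSS arrays were thus above both untreated arrays. This follows from the separation of all 8 DSS arrays from all 8 untreated ones, which 1.58% of all genes showed. The average difference was 0.59 ± 0.07 (adjusted p = 0.000185). The group means split in the same way as for Plat, with the highest untreated group (active only, 10.57) and the lowest DSS group (neither, 10.96) 0.39 ± 0.15 apart (unadjusted p = 0.0207) and no other neighbours differing at that level.

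Itgb6, the epithelial β6 subunit, varied more among the untreated groups than after DSS. After DSS it lay between 10.11 and 10.69 (median 10.23), and untreated between 9.39 and 10.56 (median 9.92), with SDs of 0.18 after DSS and 0.41 untreated. With both sources, the DSS arrays read 10.11 and 10.19, against 9.39 and 9.49 untreated. With passive only they read 10.23 and 10.28, against 9.84 and 9.60. DSS and untreated arrays overlapped in the groups without passive SIgA, at 10.18 and 10.69 against 10.01 and 10.56 with active only, and at 10.27 and 10.24 against 10.29 and 10.08 with neither. The average DSS difference was 0.37 ± 0.09 (adjusted p = 0.0188). In the order of the group means, the 2 untreated groups with passive SIgA came lowest (9.44 and 9.72), and the step from the higher of them to the next group (both sources after DSS, 10.15) was the only step past an unadjusted p of 0.05, by the same limma fit (0.43 ± 0.19, unadjusted p = 0.0361).

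Of the EGF receptor ligands, Ereg, which encodes epiregulin, read 7.24 to 7.92 after DSS (median 7.46) and 6.81 to 7.42 untreated (median 7.18), with 4 of 8 DSS arrays above every untreated array. The highest group mean was that of passive only after DSS, at 7.84 and 7.86, against 7.35 and 7.09 untreated. Arrays read 7.26 and 7.53 after DSS with both sources, against 7.04 and 7.32, and 7.33 and 7.92 with active only, against 7.13 and 7.42, so that these overlapped. With neither they read 7.39 and 7.24, against 7.22 and 6.81 untreated, without overlap. The average difference of Ereg was 0.38 ± 0.10 (adjusted p = 0.0248). Hbegf, heparin-binding EGF-like growth factor, was at 11.61 to 11.93 after DSS (median 11.74) and 11.61 to 12.22 untreated (median 11.87). Its difference of -0.15 ± 0.07 had an adjusted p of 0.18. With both sources Hbegf read 11.71 and 11.77 after DSS and 12.22 and 12.13 untreated. The mean of that untreated group, 12.18, was the highest and exceeded the next by 0.30 ± 0.13 (unadjusted p = 0.0403). Tgfa, transforming growth factor α, was nearly level, at 8.81 to 8.98 after DSS (median 8.93) and 8.67 to 9.14 untreated (median 8.93); the difference was -0.01 ± 0.06 (adjusted p = 0.939; 95% interval -0.14 to 0.12). No neighbours in the order of group means differed at an unadjusted p under 0.05 for Ereg or Tgfa.

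Without the untreated group with both sources, the average DSS effect (over the other 3 SIgA groups) was 0.77 ± 0.12 for Plat (adjusted p = 0.0022), 0.58 ± 0.09 for Itga2 (0.00163) and 0.43 ± 0.12 for Ereg (0.0497), and Itgb6 no longer passed (0.25 ± 0.11, 0.262). These were 3 of 8 genes, against 6.07% of all genes called and 2.88% called higher. Without that group and replicate 1 of the untreated group with active SIgA only, Plat (0.75 ± 0.13, adjusted p = 0.00564) and Itga2 (0.52 ± 0.09, 0.00346) passed, and Ereg (0.38 ± 0.12, 0.104) and Itgb6 (0.16 ± 0.10, 0.46) did not, where 5.55% of all genes did, 2.5% being higher. The call for Ereg was also lost when any of 8 arrays was left out alone: replicate 1 of the untreated group with both sources, replicate 2 of that group after DSS, replicate 2 of both passive-only groups, replicate 1 of the untreated and replicate 2 of the DSS active-only group, and replicate 2 of the untreated and replicate 1 of the DSS group with neither. The values were then 0.30 to 0.37, with adjusted p between 0.0519 and 0.0633. Itgb6 lost its call without replicate 2 of the untreated passive-only group (0.34 ± 0.10, 0.0502).

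**Figure D2:**
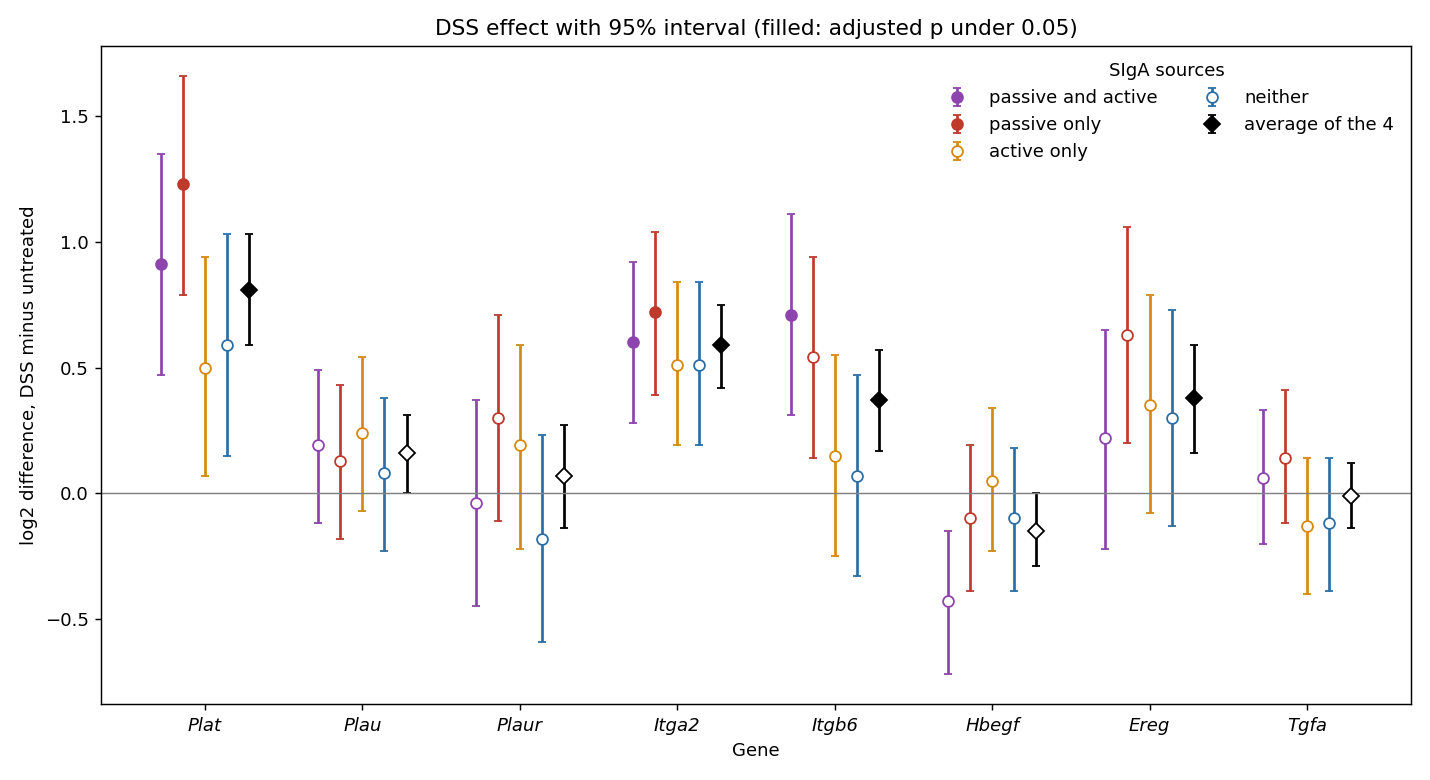
DSS effect (log2, DSS minus untreated) of each measured gene within each SIgA group (circles) and averaged over the 4 (black diamonds), with 95% intervals; filled symbols passed at an adjusted p under 0.05. Plat and Itga2 have filled circles in both groups with passive SIgA and Itgb6 in 1 of them, and the average is filled for Plat, Itga2, Itgb6 and Ereg.

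Within each SIgA group, DSS raised Plat and Itga2 in both groups that had received passive SIgA, and no gene of the set passed in the groups that had not. With both sources, 3 of the 8 genes rose, where 10.1% of all genes passed, 3.56% being higher: Plat by 0.91 ± 0.20 (adjusted p = 0.0118), Itga2 by 0.60 ± 0.15 (0.0223) and Itgb6 by 0.71 ± 0.19 (0.0274). Hbegf was at -0.43 ± 0.13 there (0.0569). With passive SIgA only, 2 genes rose, where 1.98% of all genes passed, 0.893% being higher: Plat by 1.23 ± 0.20 (0.00634), or 2.34-fold, and Itga2 by 0.72 ± 0.15 (0.0263). Ereg at 0.63 ± 0.20 (0.165) and Itgb6 at 0.54 ± 0.19 (0.216) did not pass. With active SIgA only, 0 of 8 passed (0.998% of all genes; 2 of the 8 at an unadjusted p under 0.05), with Plat at 0.50 ± 0.20 (0.323) and Itga2 at 0.51 ± 0.15 (0.151). With neither source, 0 of 8 passed (1.12% of all genes; 2 of the 8 at an unadjusted p under 0.05), with Plat at 0.59 ± 0.20 (0.283) and Itga2 at 0.51 ± 0.15 (0.168). Whether DSS effects differ between the groups is a separate question, tested by the interactions given with passive SIgA. Simulated data had the same spread, with 200 of 19938 genes changed. There 81 to 84% of changes of 1 log2 were found within a group but only 0 to 4% of changes of 0.5 log2. These shares depend on how many genes change, and 2011 were called with both sources.

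These within-group calls turned on single arrays. With both sources, Plat lost its call without either untreated array (0.89 and 0.94) or without DSS replicate 2 (0.74), Itga2 without the same 3 arrays (0.50, 0.70 and 0.53), and Itgb6 without any of the 4 (0.66 to 0.76). With passive SIgA only, Plat lost it without untreated replicate 1 (1.05) or DSS replicate 1 (1.01), and Itga2 without any of the 4 (0.61 to 0.82). Centring each array on its median, after which the median difference of all genes in the group with both sources was -0.065, against 0.035 before, left Itga2 at 0.50 ± 0.17 (adjusted p = 0.0737) and Itgb6 at 0.61 ± 0.20 (0.0698) there, and Itga2 at 0.68 ± 0.17 (0.0687) with passive only.

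Whether secretory IgA in early life or from the mouse's own Pigr moved these genes was read from the comparisons of mice that lacked a source with mice that had it. In untreated mice, lacking passive SIgA went with a higher level of Itgb6: the arrays without it read 10.01 and 10.56 (active only) and 10.29 and 10.08 (neither), against 9.39 and 9.49 (both sources) and 9.84 and 9.60 (passive only). All 4 arrays without passive SIgA lay above all 4 with it, and the share of all genes that did so was not counted. The difference was 0.65 ± 0.13, or 1.57-fold (adjusted p = 0.0221), and Itgb6 was the only 1 of the 8 genes to pass, where 2.58% of all genes did, 0.777% being higher. After DSS, Itgb6 was at 10.18, 10.69, 10.27 and 10.24 without passive SIgA and 10.11, 10.19, 10.23 and 10.28 with it, and the difference of 0.14 ± 0.13 did not pass (adjusted p = 1). No gene of the set passed after DSS, nor did any other gene (0% of all), and 788 of the 19938 genes had an unadjusted p under 0.05. The lowest p of the set was that of Plat, at -0.44 ± 0.14 without passive SIgA (unadjusted p = 0.0093, adjusted p = 0.928). Averaged over DSS and untreated mice, Itgb6 was at 0.40 ± 0.09 (adjusted p = 0.063), and 0 of 8 genes passed (1 of the 8 at an unadjusted p under 0.05), where 0.963% of all genes did. That average passed without replicate 1 of the untreated (0.47, adjusted p = 0.0183) or of the DSS (0.46, 0.0322) active-only group.

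The untreated Itgb6 difference did not pass without some of these arrays, and it shares the untreated arrays with both sources with the DSS comparison of that group. Without the untreated group with both sources it was 0.47 ± 0.19 (adjusted p = 0.647), a comparison in which 0% of all genes passed and 1379 had an unadjusted p under 0.05. It also missed the threshold without any single untreated array with passive SIgA (0.59 to 0.71, adjusted p 0.0506 to 0.0939) or without replicate 1 of the untreated group with neither (0.60, 0.103).

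No DSS effect of the set was shown to differ between SIgA groups. The DSS effect of Plat differed by -0.52 ± 0.20 between mice without and mice with passive SIgA (log2; unadjusted p = 0.0225, adjusted p = 0.51), and that of Itgb6 was at -0.51 ± 0.19 (0.0161 and 0.465). These 2 genes had the lowest p of the set, and 0 of 8 passed, where 0.115% of all genes did. For Itgb6 this interaction uses the same untreated arrays as the 2 comparisons before it and adds nothing independent of them. The other 6 genes had interactions with passive SIgA between -0.23 (Tgfa) and 0.24 (Hbegf). In the interaction of DSS with active SIgA 0 of 8 passed (0.843% of all genes; 0 of the 8 at an unadjusted p under 0.05), and in the three-way interaction 0 of 8 (0.0602% of all genes; 0 of the 8 at an unadjusted p under 0.05), where Plaur was at -0.71 ± 0.38 (adjusted p = 0.812).

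Lacking active SIgA changed 0 of the 8 genes on average (1.37% of all genes), in untreated mice (7.49%) or after DSS (0.00502%), by the same limma test. The smallest p was that of Plau, at 6.18 without active SIgA and 6.36 with it, a difference of -0.18 ± 0.07 (unadjusted p = 0.0259, adjusted p = 0.215). It was the only 1 of the 8 at an unadjusted p under 0.05 on average, and again after DSS (-0.23 ± 0.10, unadjusted p = 0.0376, adjusted p = 1); in untreated mice there was 0.

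Some genes that act with these also passed for DSS. The lists leave out the 8 genes themselves and are described by counts only, to be read beside the 13.1% of all genes that passed (6.4% higher and 6.73% lower) and, without the untreated group with both sources, 6.07% (2.88% higher). In the plasminogen system, 1 of 10 measured genes rose and 2 fell (median 0.01, against -0.004 over all genes). Serpinb2, which encodes the inhibitor PAI-2, rose by 0.54 ± 0.08 (adjusted p = 0.000768). Lrp1, an endocytic receptor that clears activator and inhibitor complexes, fell by 0.32 ± 0.06 (0.00592) and Plgrkt, a plasminogen receptor, fell by 0.33 ± 0.08 (0.0122). Plg, plasminogen itself, named here after its value was seen, was at -0.03 ± 0.08 (0.871). Plat and Serpinb2, whose product inhibits plasminogen activators, were thus both higher after DSS. Serpinb2, Lrp1 and Plgrkt also passed without the untreated group with both sources.

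Among EGF family genes, 0 of the 7 other ligands passed (median 0.00; 3 at an unadjusted p under 0.05), although Egf was called lower when arrays were centred or quantile normalized and Nrg1 higher in the second case, and the receptor and feedback list fell in part, with 6 of 14 lower and 0 higher (median -0.17). The receptors Erbb2 (-0.26 ± 0.06, adjusted p = 0.0127) and Erbb3 (-0.24 ± 0.06, 0.0142) were lower, while Egfr, named here after its value was seen, was at 0.15 ± 0.10 (0.412). The other 4 restrain receptor or ERK signalling. Lrig1, which promotes receptor degradation, fell by 0.36 ± 0.05 (0.000327), Dusp5, an ERK phosphatase, fell by 0.38 ± 0.06 (0.00105), and the Sprouty genes fell by 0.41 ± 0.08 (Spry1, 0.00407) and fell by 0.25 ± 0.06 (Spry2, 0.0123). The same 6 genes were lower when arrays were centred or quantile normalized, and Erbb3 missed the threshold without the untreated group with both sources (-0.23 ± 0.07, 0.0805). Of 12 genes that ERK signalling induces, 4 were lower (Etv5, Fosl2, Fos and Junb, -0.30 to -0.18) and 1 higher (Ier3, 0.55 ± 0.07, adjusted p = 0.000134). The count of lower ERK targets was 7 with quantile normalization, 3 without the untreated group with both sources and 1, Fosl2, without replicate 1 of the untreated active-only group as well.

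Of the 8 genes that release the ligands or hold that release back, 2 rose and 1 fell (median 0.05). The sheddases Adam10 and Adam17 rose by 0.48 ± 0.07 (adjusted p = 0.000475) and 0.23 ± 0.06 (0.0268), and Timp3, an inhibitor of Adam17, fell by 1.06 ± 0.09 (5.43e-06). Timp3 passed in 3 of the 4 SIgA groups taken singly: it fell by 1.15 ± 0.18 with both sources, fell by 1.48 ± 0.18 with passive only and fell by 0.99 ± 0.18 with neither. Without the untreated group with both sources, Adam17 did not pass (0.16 ± 0.07, 0.316), nor did it when arrays were centred.

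Of 16 other integrin subunits, 3 rose and 1 fell (median 0.07). Itgav, the αv partner of β6, rose by 0.66 ± 0.12 (adjusted p = 0.00221), Itgb8, which pairs with αv as well, by 0.30 ± 0.08 (0.0207), and Itga3, part of a laminin receptor, by 0.22 ± 0.06 (0.0314). Itga8 was lower (-0.24 ± 0.06, 0.0169). Itgb1, the β1 partner of α2, was at 0.22 ± 0.07 (0.0693), a value picked out after it was seen. Only Itgav and Itgb8 passed without the untreated group with both sources. Of 14 TGF-β and matrix partners 0 passed (median 0.04; 3 at an unadjusted p under 0.05), with Fn1, fibronectin, also chosen after its value was seen, at 0.38 ± 0.13 (0.0624). Matrix metalloproteases and inhibitors gave 3 of 11 higher: Timp1 (0.54 ± 0.13, 0.0132), Mmp9 (0.50 ± 0.10, 0.00363) and Mmp13 (0.22 ± 0.06, 0.0202), of which Mmp9 alone passed without that group.

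**Figure D3:**
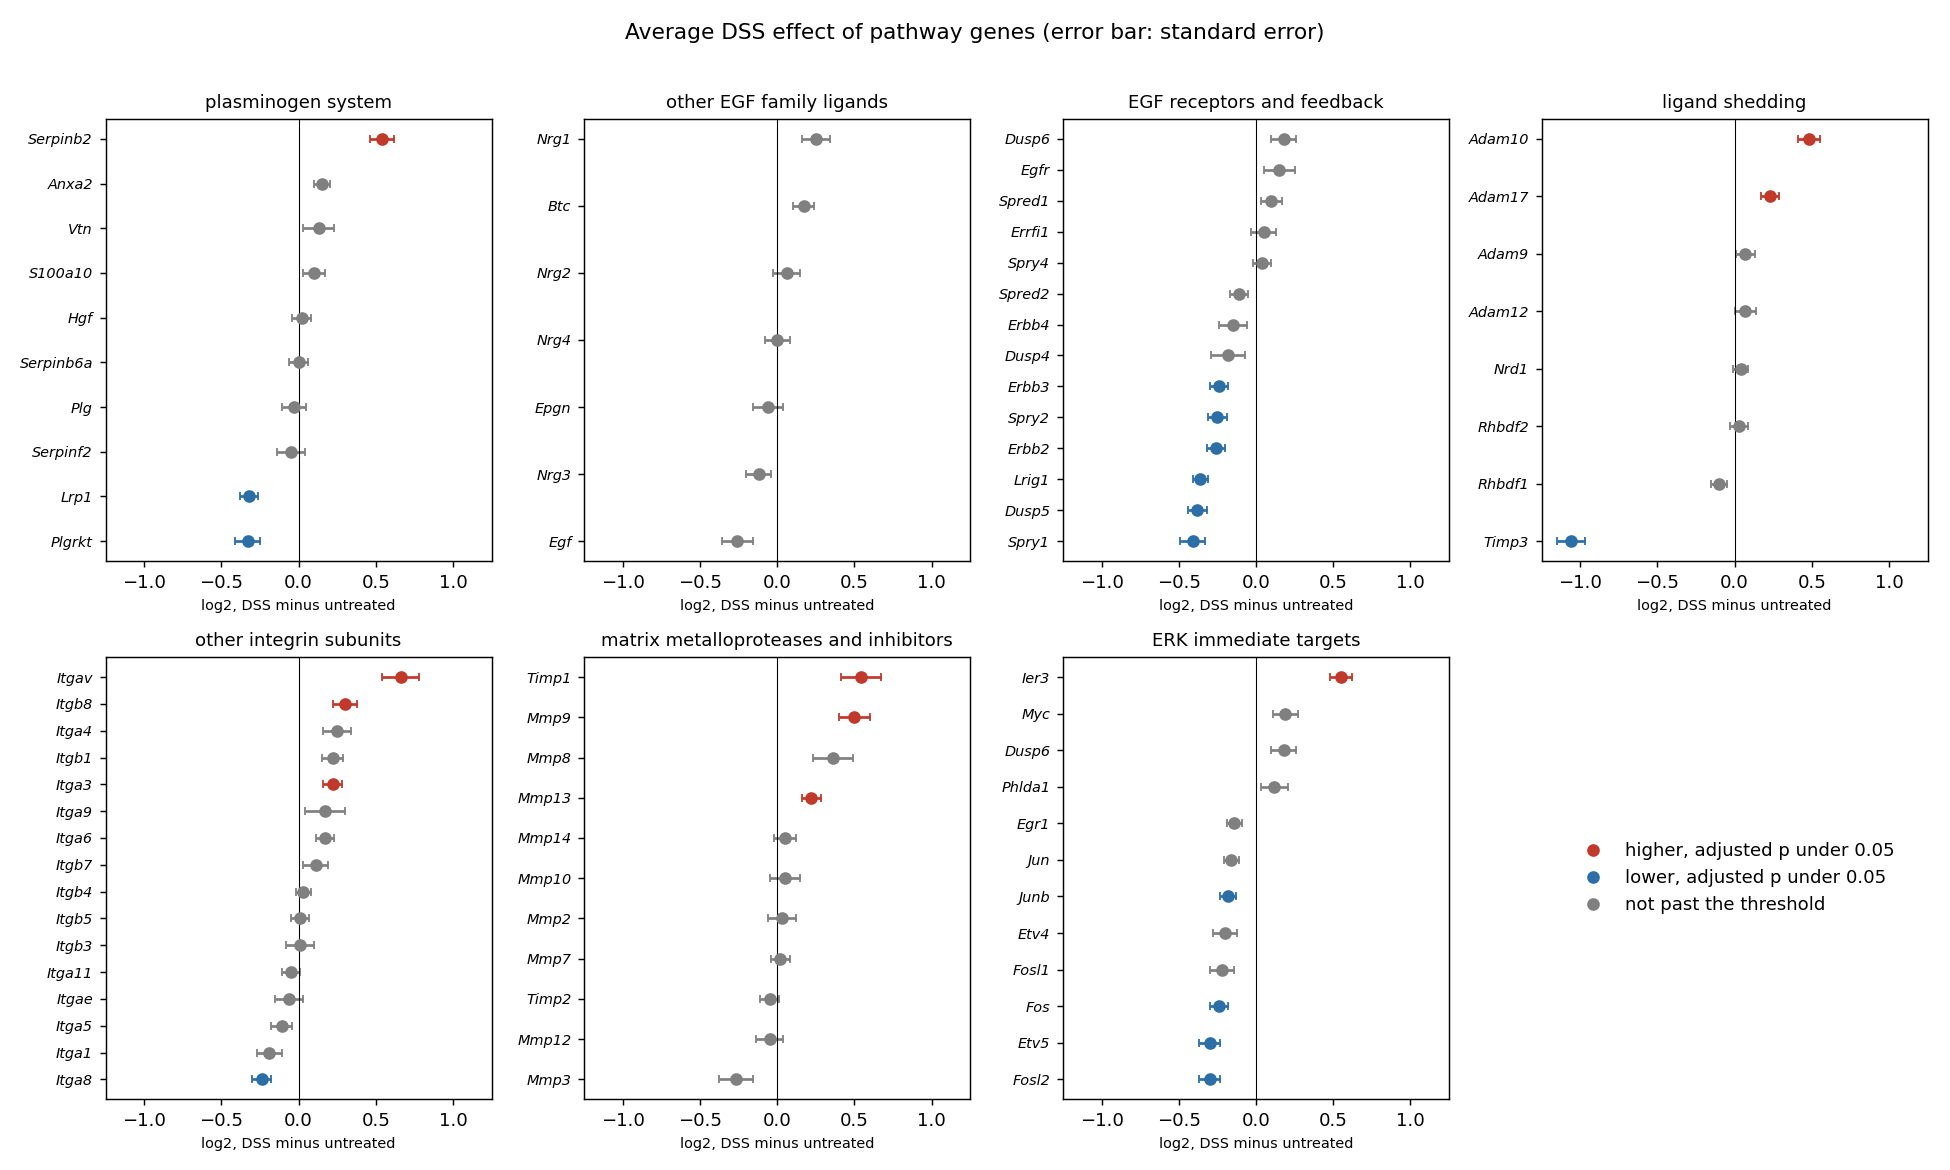
Average DSS effect (log2, DSS minus untreated, with SE) of genes in lists around the set, coloured by whether they rose (red), fell (blue) or did not pass (grey). Timp3 lies farthest to the left at -1.06, the 6 lower genes of the receptor and feedback list share its sign, and Itgav and Serpinb2 are the rightmost of their panels.

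Markers of wound-edge and regenerating epithelium gave 4 of 20 genes higher and 1 lower (median 0.06), where 6.4% of all genes were higher and 6.73% lower. Most of these markers did not pass. Ptgs2, cyclooxygenase-2, rose by 1.53 ± 0.16 (adjusted p = 2.85e-05), Sprr2h, a cornified envelope gene, by 0.87 ± 0.12 (0.000419), Anxa1, a regulator of inflammation, by 0.53 ± 0.13 (0.0182) and Ly6d by 0.42 ± 0.07 (0.00231). Cldn4, a tight junction claudin, was lower (-0.51 ± 0.10, 0.00534). Without the untreated group with both sources the count was 3 higher and 0 lower, where 2.88% of all genes were higher. The labels do not say whether the cells came from injured or intact mucosa.

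Markers of white blood cells moved with the same contrast. Of 14 neutrophil markers, 11 were higher after DSS and 0 lower (median 0.87), and their mean level was 6.63 to 7.35 on DSS arrays (median 6.87) and 5.90 to 6.29 on untreated arrays (median 6.02). They included Trem1 (1.60 ± 0.15), Lcn2 (1.58 ± 0.14), Retnlg (1.54 ± 0.10), the chemokine receptor Cxcr2 (1.32 ± 0.12), S100a8 (1.11 ± 0.09) and Hdc (1.03 ± 0.08), each with an adjusted p of 1.19e-05 or less. Mmp9 is on this list as well as among the metalloproteases. Ly6g, counted among the 11 and named after its value was seen, had a mean level of 12.23. The rest of the list ran from 4.73 (Mmp8) to 7.25 (Hdc). Which cells the Ly6g signal came from was not tested. The 3 markers that did not pass, named after their values were seen, encode granule proteins: Mmp8 was at 0.36 ± 0.13 (adjusted p = 0.091), Ngp at 0.05 ± 0.12 (0.857) and Camp at 0.02 ± 0.08 (0.938). Of 16 monocyte and macrophage markers 9 were higher and 0 lower, with mean levels of 6.31 to 6.52 after DSS and 5.80 to 6.14 untreated. Among them were Cybb (1.12 ± 0.11), Cd14 (0.99 ± 0.08), Fcer1g (0.99 ± 0.09), Tyrobp (0.98 ± 0.11), Csf1r (0.44 ± 0.07) and Itgam (0.59 ± 0.06), which both lists hold. The median of the macrophage list was 0.38. Its genes that did not pass ran from C1qa (0.01 ± 0.08) to Adgre1 (0.25 ± 0.08), both named after their values were seen. Fibroblast markers gave 5 of 12 higher, namely Vim (0.81 ± 0.10), Dcn (0.78 ± 0.13), Sparc (0.66 ± 0.13), Fbln1 (0.58 ± 0.06) and Pdpn (0.39 ± 0.10), with list means of 7.23 to 7.51 after DSS and 6.73 to 7.43 untreated. The list median was 0.13. Fibroblast genes that did not pass ran from Lum (-0.04 ± 0.09) to Col3a1 (0.14 ± 0.08), both named after their values were seen, and included Col1a1 (0.05 ± 0.10), named likewise. Pdpn did not pass without the untreated group with both sources (0.35, adjusted p = 0.115). The T cell, endothelial and smooth muscle markers gave 0 of 10, 0 of 10 and 0 of 8 (0 at an unadjusted p under 0.05 in each). B and plasma cell markers gave 2 of 8 lower, Igha (-0.61 ± 0.14) and Sdc1 (-0.33 ± 0.05), and 1 without the untreated group with both sources, where Igha was at -0.24 ± 0.17 (adjusted p = 0.593). Sdc1 had a mean level of 10.45, against 4.56 (Ms4a1) to 6.38 (Cd79b) for the rest of that list. Which cells its fall came from was not tested. Epithelial markers gave 2 of 12 lower, Krt18 at -0.20 ± 0.06 and Cldn3 at -0.21 ± 0.06, and 0 without the untreated group with both sources. The array with the highest Plat, replicate 1 of the passive-only group after DSS (8.95), also had the highest neutrophil marker level (7.35), and the DSS array with the lowest Plat (7.77, replicate 2 with neither) had a level of 6.67. The part of these cells in the rises was not tested.

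**Figure D4:**
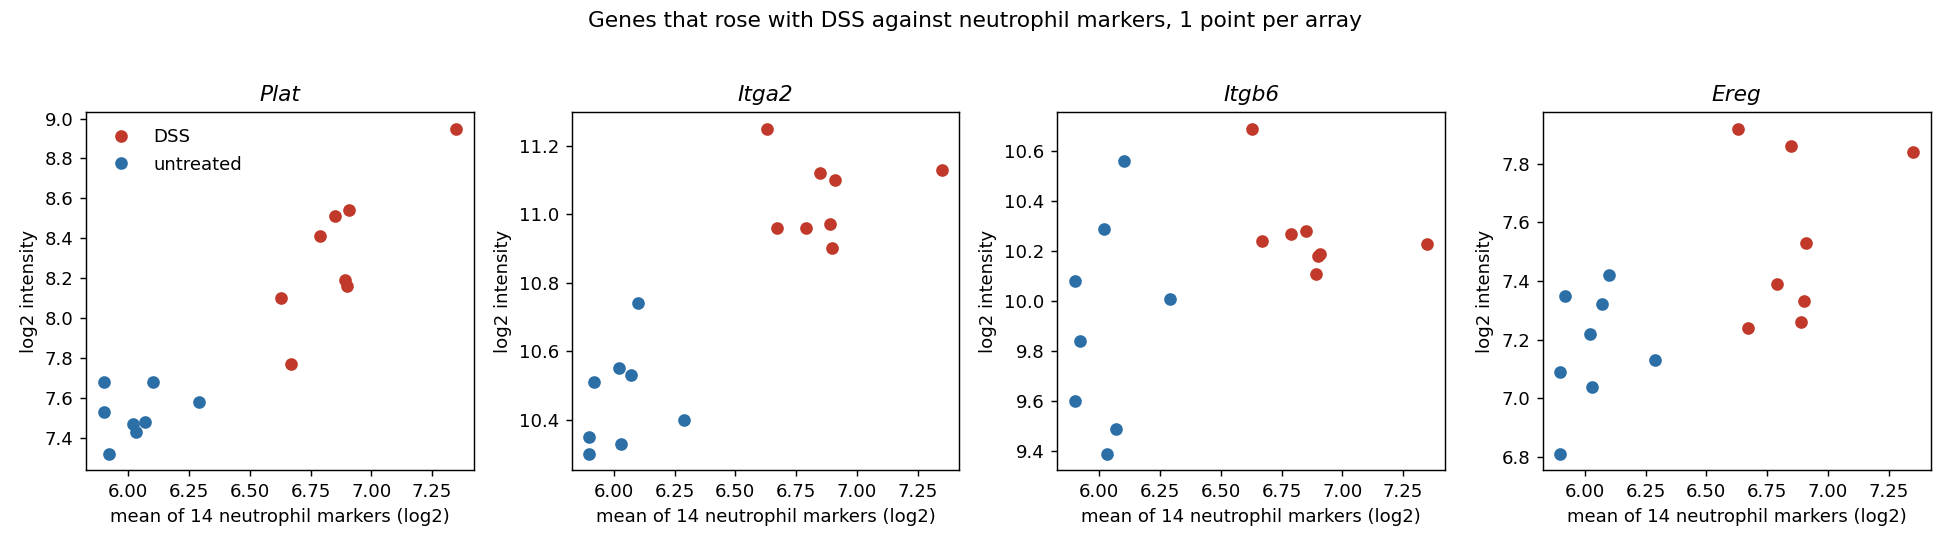
Log2 intensity of the 4 genes that rose with DSS against the mean log2 level of 14 neutrophil markers, 1 point for each array, DSS in red and untreated in blue. Plat is highest on the array with the highest marker level, 7.35, whereas Itga2, Itgb6 and Ereg peak on the DSS array with the lowest marker level, 6.63.

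The genes whose levels ran most like each of the 8, by Pearson's r over the 16 arrays, were a different trio for each. The arrays share the DSS contrast. For the trios of Plat and Itga2, r is also given within the 8 DSS arrays and within the 8 untreated arrays, as a description. For the trios of the other genes only r over all arrays is given gene by gene. Their r ran from 0.49 to 0.92 within DSS arrays and from 0.51 to 0.97 within untreated arrays. For Plat they were Retnlg (0.95 over all arrays, 0.97 within DSS, 0.03 within untreated), a neutrophil marker, Lcn2 (0.94, 0.83 and -0.37), a neutrophil granule and epithelial defence protein, and Pkp4 (0.94, 0.87 and 0.31), a junction protein. Itga2 ran with Ripk3 (0.98, 0.84 and 0.93), a kinase of necroptosis, Itgav (0.96, 0.95 and 0.96) and Duox2 (0.96, 0.87 and 0.61), an epithelial oxidase. For Itga2 and Itgav r was thus high within both sets of arrays, and for Plat and Retnlg only among the DSS arrays. These genes were picked by r over the same arrays, including the untreated ones that stood apart. Their r within a set is therefore no separate support for a likeness. Itgb6 ran with Smg1 (0.95), Dst (0.94) and Bcl6 (0.93), Ereg with Zfp57 (0.87), Tnfsf15 (0.87) and Mex3c (0.85), and Plau with Abl2 (0.86), Ms4a6d (0.83) and Bag3 (0.82). For Plaur these were Mgat5, Itpkc and Oxsm (0.86 each), for Hbegf Hipk1, Muc3 and Pttg1ip (0.89 each), and for Tgfa Tro (0.93), Ago2 (0.89) and Celf3 (0.88). Within the set, Itga2 and Ereg were the closest, at 0.84 over all arrays, 0.91 within DSS and 0.81 within untreated arrays. Plat and Itga2, at 0.83 over all arrays, had 0.36 and 0.07 within.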

How the data were processed

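RNA of isolated colonic epithelial cells was hybridised to Affymetrix whole-transcript arrays, 2 per group, each from a separate pool of 3 mice. The deposited values are log2 intensities that the authors made with RMA, per the submitters' processing notes; the RMA version is not given in the sources used, and raw intensities were not analysed here. The table held 35557 probe sets on 16 arrays, from 1.857 to 14.938, with array medians of 6.678 to 6.825. Of the probe sets 21789 named a single gene, 1621 several and 12147 none. For each gene the probe set with the highest mean was kept, which left 19938 genes; 21698 of the probe sets with a single gene matched RefSeq (GRCm38.p6), used for names and promoters only.

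A mean per group was fitted with limma 3.58.1 in R 4.3.3 (8 residual and 5.03 prior degrees of freedom) and tested in 14 contrasts, two-sided, with Benjamini-Hochberg adjustment over all genes at 0.05. Differences run DSS minus untreated, or lacking a SIgA source minus having it. Spread, and so every p-value, is that between pools; having 2 arrays a group limits the precision. Simulated data had 200 of 19938 genes changed. On them the average DSS effect recovered 78% of changes of 0.5 log2 and 100% of changes of 1 log2. Recovery depends on how many genes change, and 2618 were called in the real data for that effect. The genes and all lists were chosen with earlier results of these data known. Every gene of the set is named in full; of each list, up to 6 genes past the threshold with the smallest p; for likeness, the 3 genes with the highest r, not counting symbols of predicted, unnamed, small RNA, olfactory receptor or vomeronasal receptor genes. Exceptions are said to have been chosen after their values were seen. Alternatives were a variance trend, no moderation, array weights, a replicate block, median centring, quantile normalization, a filter on the dimmest 30% of genes, other uses of probe sets, other thresholds, a fit of the compared arrays and leaving out arrays. A lone array left in a group was assumed to vary like the others.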

Additional observations from a re-analysis of the deposited data

Results flagged for a closer look

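Plaur was marked because its DSS difference had opposite signs, with both DSS arrays beyond both untreated arrays, in 2 SIgA groups. Neither difference passed the test, and how many of all genes meet this rule was not counted. With passive SIgA only, both DSS arrays (10.06 and 10.37) lay above both untreated arrays (9.97 and 9.86), a difference of 0.30 ± 0.19 (log2; limma, adjusted p = 0.652). With neither source, both DSS arrays (10.32 and 10.05) lay below both untreated arrays (10.36 and 10.37), a difference of -0.18 ± 0.19 (adjusted p = 0.966). The contrast of these effects, chosen after the values were seen, was -0.48 ± 0.27 (unadjusted p = 0.0936, adjusted p = 1), and 0 of all genes passed in it at an adjusted p under 0.05.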

How the results depend on the processing

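Plat and Itga2 kept their average DSS calls under every alternative run, Plat at 0.73 to 0.89 and Itga2 at 0.54 to 0.63 with single arrays left out. Of 4 genes called there, 2 were left without moderation, without the untreated group with both sources and 1 more array, or at a change of at least 1.5-fold, and 2 to 4 with single arrays left out (2 without replicate 2 of the untreated passive-only group). All genes called numbered 2618, against 1210 without that group, 1107 without it and 1 more array, 338 at 1.5-fold and 1951 to 3290 with single arrays left out. Without moderation 0 genes of the set were called in each SIgA group with passive SIgA or for lacking passive SIgA in untreated mice. Leaving out single arrays gave 0 to 4 calls with both sources, 0 to 2 with passive only, 0 to 1 with active only (1 without untreated replicate 2), 0 to 1 for lacking passive SIgA in untreated mice and 0 to 1 for it on average. Median centring gave 1 call with passive only, and array weights 1 call with neither source. For lacking passive SIgA in untreated mice 0 were called without the 2 or 3 arrays that stood apart, or when the compared arrays were fitted alone. On average, 1 gene, Itgb6, was called with a variance trend, with quantile normalization or at an adjusted p under 0.1. Tgfa, near 0, changed sign without the 3 arrays (0.00) and in some runs without 1 array (-0.05 to 0.03). The causes were not tested.

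Median centring changed the split of all calls: 34.8% of those for DSS on average were higher, against 48.7% as deposited, 13.4% against 35.3% with both sources, 75.3% against 62.3% with active only, 18.5% against 33.9% for lacking passive SIgA and 8.43% against 30.2% for it in untreated mice. The replicate numbers did not pair the pools: deviations of same-numbered arrays correlated at -0.30 to 0.67 over 28 pairs of groups (median 0.08; 14 over 0.1). With the replicate number as a block, lacking passive SIgA on average called 1 gene, Itgb6 (0.40 ± 0.09, adjusted p = 0.0498).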
